A study of Homo sapiens with 12 samples.

Results

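The mitochondrial ribosome translates the few proteins encoded by mitochondrial DNA, all of them subunits of the respiratory chain or ATP synthase. Its rRNAs come from the mitochondrial genome, while its proteins are encoded in the nucleus, made in the cytosol and imported. MRPL genes encode proteins of the large subunit, which joins amino acids, and MRPS genes those of the small subunit, which reads the mRNA. The members described here are the protein-coding genes whose symbol begins with MRPL or MRPS followed by a number and that are present in both deposited tables, without pseudogenes. There were 78, of 61806 genes in the LP-1 table and 19130 in the U266 table: 49 MRPL and 29 MRPS genes. They were chosen by symbol and not by any measured value.

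RNA was sequenced from LP-1 and U266, established lines of human multiple myeloma, a cancer of antibody-secreting plasma cells. Both are labelled wild type. Each line received dihydroartemisinin (DHA), the active form of the artemisinin antimalarials, at its IC50 or the same amount of DMSO, the solvent control, and RNA was taken after 12 h. No source used here gives the dose. With 3 libraries in each of the 4 groups and no word on whether they came from separate cultures, p-values measure the spread between these samples, which may be technical.

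The median member was covered by 543 to 977 reads per library in LP-1 and 550 to 1173 in U266. Gene totals ran from 13.44 to 17.49 M reads for LP-1 libraries and from 10.33 to 21.85 M for those of U266. Of 8 plasma cell markers, 7 were at 1 FPKM (reads scaled by gene length and library size) or more in all 6 libraries of each line, and the 4 monocyte and macrophage markers reached at most 0.12 FPKM in LP-1 and 2.82 FPKM in U266. The erythroid gene HBB was at 6.24 to 11.1 FPKM in U266, and its part in the results was not tested. The tables of the 2 lines were made separately, so levels were not compared between lines. In bulk RNA, fewer cells with a transcript and less of it per cell cannot be told apart.

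The 78 genes lie on 21 chromosomes. By the classification of ribosomal proteins, 46 have a bacterial counterpart, 31 exist only in mitochondrial ribosomes, and MRPS36 is now assigned to the 2-oxoglutarate dehydrogenase complex. MRPS18A and MRPS30 carry small-subunit symbols but sit in the large subunit in structures. In GENCODE v29 (GRCh38), 17 members (21.8%) had a protein-coding neighbour transcribed in the opposite direction from a start within 1000 bases, against 7.38% of 19951 protein-coding genes. MRPL46 and MRPS11 are such a pair, 34 bases apart, and the start of MRPL47 lies 36 bases from that of the respiratory chain gene NDUFB5. Exons of 41 members overlap another gene, and 36 have named pseudogenes. How the authors' counting used strand or shared reads is stated in no source used here, so values of overlapping genes are uncertain.

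Members were expressed at moderate levels and spanned a wide range. In LP-1, MRPS34, a small-subunit protein without bacterial counterpart, had the highest mean over the 6 libraries (145.5 FPKM), followed by MRPL9, MRPS18B, MRPL24 and MRPL15. In U266 the order was led by MRPL47 (83.0 FPKM), MRPL18, MRPS21, MRPS34 and MRPL39. MRPL47 varied from 78.9 to 88.2 FPKM and MRPL18 from 74.2 to 84.4 FPKM across U266 libraries, so their ranges overlapped. MRPL18 was the higher in DMSO 3 (79.7 against 79.2 FPKM) and MRPL47 in every other library, and their order was not tested. At the other end, MRPL53 was at 0.19 to 0.95 FPKM in LP-1 and listed at 0 in all 6 U266 libraries. MRPS24 was at 0.132 to 0.478 FPKM and MRPL38 at 0.712 to 1.00 FPKM in U266. These 3 genes were below the filter there (at least 1 FPKM in at least 3 libraries), which left 75 members tested in U266 and 77 in LP-1. Summed over all 78, the members had 1823 to 2094 FPKM in the 6 U266 libraries.

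One LP-1 control stood apart. The summed member level was 1972, 1768 and 2683 FPKM in DMSO replicates 1 to 3, against 1828, 1864 and 1910 FPKM with DHA. On the log2(FPKM + 1) scale, DMSO 3 was above the mean of the other DMSO libraries by a median of 0.46 over the members, with 70 of 77 above 0, while the median over all 12514 tested genes was -0.05. The offset was 0.55 for MRPL and 0.41 for MRPS genes. It was 0.67 for the 25 members of shortest exon length and 0.23 for the 26 of longest, and across the 77 members its Pearson r with log2 exon length was -0.52 (Spearman -0.51; all points share these 3 libraries). The cytosolic ribosomal proteins (0.73) and the nuclear-encoded respiratory chain genes (0.74) had larger offsets still. Member counts and the changes of the members described in LP-1 are therefore given with all libraries and again without this one.

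**Figure D1:**
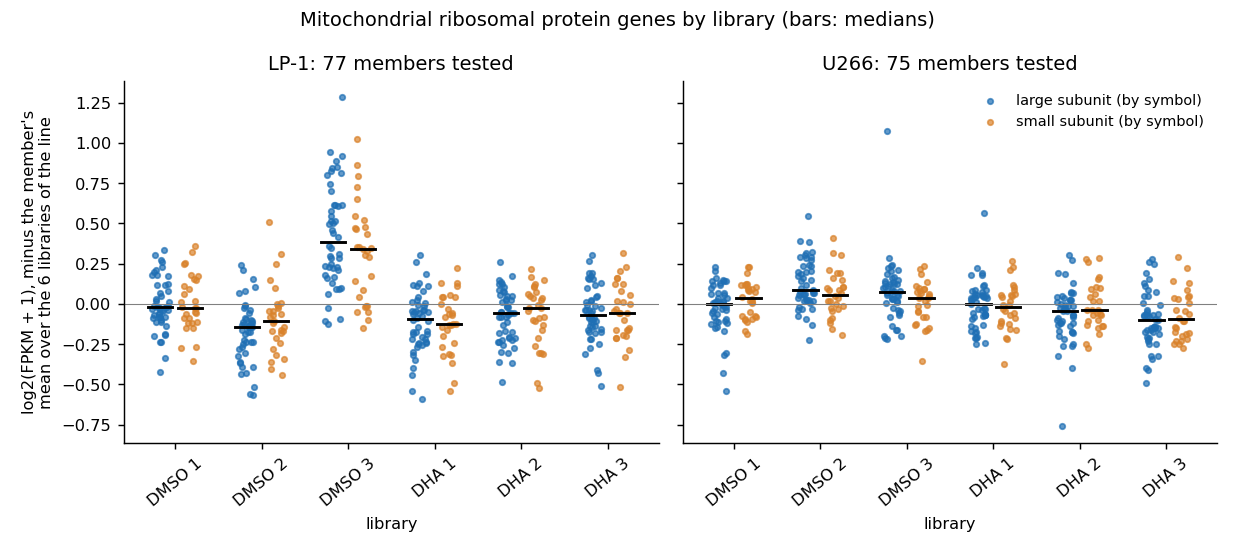
Each point is a tested member in one library, as log2(FPKM + 1) minus that member's mean over the 6 libraries of its line; colours separate MRPL from MRPS genes and black bars are medians. In LP-1, DMSO replicate 3 sits above the 5 other libraries for most members; no U266 library is displaced to that extent.

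In LP-1 most members did not pass the test for a change with DHA. Of 77 tested, 4 rose and 12 fell at an adjusted p under 0.05 (limma on log2(FPKM + 1), Benjamini-Hochberg over all genes tested), and 61 did not pass. Across all tested genes 20.0% rose and 20.2% fell, so rising members were fewer in proportion (5.19%) and falling members somewhat fewer (15.6%). The members' median log2 change was -0.12 and that of all genes 0.01. Without DMSO 3, 14 members rose and 19 fell, against 28.0% and 28.6% of all genes, and the members' median became 0.01 (all genes -0.01). All 16 calls were kept without that library, with the same sign. The count of rises moved with the library left out: it was 0 without DMSO 1 or any one DHA library and 2 without DMSO 2. Falls numbered 4, 6 and 6 without DHA 1, 2 or 3 and 20 without DMSO 2. The share of all genes called moved too, from 40.2% to 28.9% without DMSO 1 and 45.5% without DMSO 2. Without DHA 1, 2 or 3 it was 23.3%, 23.3% and 23.9%.

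The largest fall in LP-1 was that of MRPS28, a small-subunit protein of the bacterial S1 family. Its level was 13.6, 14.2 and 23.9 FPKM with DMSO and 7.42, 7.55 and 7.59 FPKM with DHA. The groups did not overlap and the DHA libraries lay within 0.2 FPKM of each other. The log2 change was -1.05 ± 0.21 (SE, n = 3 per group, adjusted p = 0.00906), and -0.81 without DMSO 3 (adjusted p = 9.96e-05).

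MRPL34, a short protein of the large-subunit core (chromosome 19, 17292609 to 17306843, plus strand), was at 49.0, 43.1 and 75.2 FPKM with DMSO and 28.2, 27.3 and 26.8 FPKM with DHA. Every DHA library was below every control, and the log2 change was -0.96 ± 0.20 (adjusted p = 0.0113), and -0.72 without DMSO 3. Its exons overlap ABHD8 on the opposite strand. MRPS24, the S3-family protein at the mRNA entrance, was at 7.59, 6.96 and 12.1 FPKM against 4.12, 4.12 and 4.91 FPKM, a log2 change of -0.84 ± 0.19 (adjusted p = 0.0161; above 0.05 without DHA 1 or DHA 2, up to 0.0619), and of -0.62 without DMSO 3. A readthrough transcript with URGCP shares its exons. The other falls in LP-1 were MRPL16, MRPL28, MRPL40, MRPL42, MRPL43, MRPS5, MRPS14, MRPS25 and MRPS34, with log2 changes between -0.73 and -0.40, and between -0.72 and -0.29 without DMSO 3.

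The 4 rises in LP-1 were smaller. MRPL18, the large-subunit L18 protein of which a cytosolic form made in heat stress is also known, was at 37.2, 31.7 and 50.6 FPKM with DMSO and at 56.6, 56.7 and 56.9 FPKM with DHA. The DHA libraries were nearly equal and all above the controls, with a log2 change of 0.53 ± 0.17 (adjusted p = 0.0448), and 0.71 without DMSO 3. MRPS35, which has no bacterial counterpart, was at 28.5, 28.3 and 33.5 FPKM against 40.5, 38.5 and 40.8 FPKM (log2 change 0.40 ± 0.09, adjusted p = 0.0148; 0.48 without DMSO 3). MRPS18A, the large-subunit protein with a small-subunit symbol, moved from 24.5 ± 0.977 to 29.4 ± 0.110 FPKM (SD, n = 3; log2 change 0.25, adjusted p = 0.0272, and 0.24 without DMSO 3). The fourth, MRPS22, rose in both lines and is described with the shared members. None of these calls held in every fit with 1 library fewer: without DMSO 1 or any DHA library all 3 missed the threshold, as did MRPL18 without DMSO 2. The highest adjusted p over the alternatives was 0.122 for MRPL18, 0.0687 for MRPS35 and 0.116 for MRPS18A.

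Without DMSO 3, 10 further members rose (MRPL1, MRPL3, MRPL15, MRPL21, MRPL39, MRPL47, MRPL49, MRPL58, MRPS6 and MRPS18C) and 7 further members fell (MRPL14, MRPL19, MRPL20, MRPL33, MRPL36, MRPS17 and MRPS21). MRPL1, the protein of the mobile stalk where spent tRNA leaves, shows what the library does to a rise. Its controls were 18.8, 17.6 and 28.6 FPKM and its DHA libraries 31.8, 28.9 and 31.7 FPKM. The log2 change was 0.52 ± 0.18 with all libraries (adjusted p = 0.0602) and 0.73 ± 0.06 without DMSO 3 (adjusted p = 0.000271). MRPL41 gave the opposite picture, with controls of 40.8, 28.6 and 85.7 FPKM and DHA libraries of 23.5, 27.9 and 25.8 FPKM: its log2 change of -0.83 became -0.40 and passed in neither fit (adjusted p = 0.115 and 0.0614).

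**Figure D2:**
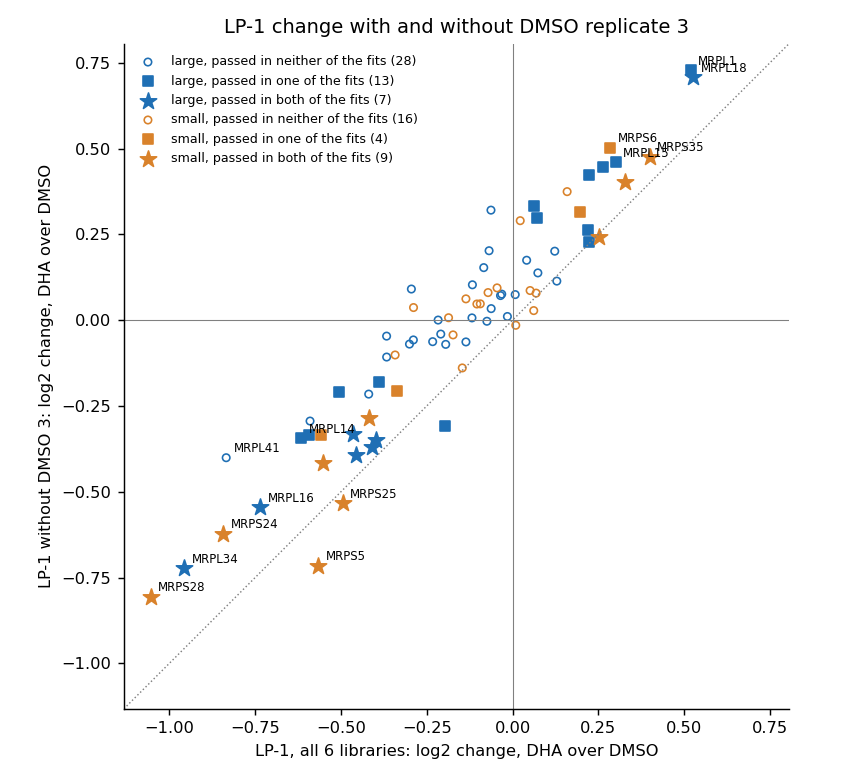
Log2 change with DHA in LP-1 for 77 members, with all 6 libraries (horizontal) and without DMSO replicate 3 (vertical); the dotted line marks equal values and stars mark members that passed in both fits. Most points lie above the line, since leaving out the high control raised the change, and the 16 starred members kept their sign.

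In U266 falls outnumbered rises. Of 75 members tested, 7 rose and 24 fell, 9.33% and 32.0%, against 21.1% and 19.6% of all 10422 genes tested. The members' median log2 change was -0.10 and that of all genes 0.02. Member sums were 1940, 2094 and 1995 FPKM with DMSO and 1918, 1886 and 1823 FPKM with DHA, so every DHA library was below every control. Scaling the FPKM by trimmed means (TMM) moved the median of all genes by -0.10 and left 2 rising members, MRPL10 and MRPS22, with 31.5% of all genes called in either direction against 40.7% as deposited. In a fit of all 12 libraries, whose shared spread includes LP-1 DMSO 3, 4 rose and 6 fell, and 28.6% of all genes were called.

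Among the falls that passed in U266, the largest were those of 2 proteins of the large-subunit core. MRPL14, the L14 protein on the face toward the small subunit, was at 46.4, 48.5 and 46.5 FPKM with DMSO and 34.0, 29.7 and 35.4 FPKM with DHA (log2 change -0.50 ± 0.06, adjusted p = 0.000186). MRPL20, an early-assembling protein in bacteria, was at 21.9, 26.2 and 23.2 FPKM against 16.9, 17.8 and 14.7 FPKM (log2 change -0.50 ± 0.08, adjusted p = 0.000868). Neither had overlapping groups. MRPL41, which has no bacterial counterpart, fell from 31.5 ± 2.06 to 22.4 ± 2.46 FPKM (log2 change -0.48, adjusted p = 0.000839). In the fit of all 12 libraries MRPL14 and MRPL41 did not pass (adjusted p = 0.0544 and 0.227). MRPS12, the decoding-centre protein, fell from 15.8 ± 1.67 to 12.6 ± 1.79 FPKM (log2 change -0.31, adjusted p = 0.0300), but not without DMSO 2, DHA 2 or DHA 3 (up to 0.329 over all alternatives). The other falls had log2 changes of -0.44 to -0.19. MRPL23 had a lower estimate than any of these (log2 change -0.71) but did not pass (adjusted p = 0.144), with controls of 1.68, 4.69 and 7.21 FPKM against 3.42, 1.31 and 1.78 FPKM. MRPS36, whose protein is not a ribosomal one, fell from 19.6 ± 0.419 to 16.6 ± 1.47 FPKM (log2 change -0.23, adjusted p = 0.0173). It did not pass without DMSO 2 or DHA 1 or in the fit of all 12 libraries (up to 0.315).

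MRPL10, which anchors the stalk that recruits elongation factors, had the largest rise in U266. Its level was 38.0, 40.6 and 41.3 FPKM with DMSO and 54.4, 57.6 and 57.9 FPKM with DHA, well separated groups, with a log2 change of 0.49 ± 0.05 (adjusted p = 4.28e-05). MRPL12, the stalk protein that MRPL10 holds and that also binds the mitochondrial RNA polymerase, was at 5.53, 10.5 and 9.39 FPKM against 8.29, 8.65 and 5.63 FPKM. Those groups overlapped (log2 change -0.13, 95% interval -0.58 to 0.32). The level of MRPL39, which resembles a tRNA synthetase, was 56.1 ± 4.20 FPKM with DMSO and 74.4 ± 7.29 FPKM with DHA (adjusted p = 0.00232, log2 change 0.40). MRPL44, with a ribonuclease III fold, rose by 0.30 on the log2 scale, from a mean of 32.8 ± 1.34 FPKM to 40.6 ± 1.91 FPKM (adjusted p = 0.00155). MRPS9 rose by 0.32 and MRPL9 by 0.19 on the log2 scale, the latter not without DMSO 3 of U266. MRPL9, MRPL44 and MRPS9 did not pass under TMM-style scaling or in the fit of all 12 libraries. Their adjusted p reached 0.64, 0.263 and 0.12 over the alternatives. MRPL39 did not pass under TMM-style scaling (adjusted p = 0.0893). MRPS30, at 12.1, 11.2 and 11.2 FPKM against 12.1, 15.5 and 13.8 FPKM, passed only narrowly (log2 change 0.24, adjusted p = 0.0458). It failed without any one U266 library other than DHA 1. MRPL58, a peptidyl-tRNA hydrolase that became part of the ribosome, passed in neither line with all libraries (log2 change 0.22 in LP-1, or 0.42 without DMSO 3, and 0.15 in U266).

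In both lines 7 members passed in the same direction: MRPL16, MRPL28, MRPL34, MRPS5, MRPS25 and MRPS34 fell and MRPS22 rose. With all libraries no member passed in opposite directions. Across the 75 members tested in both lines the log2 changes had a Pearson r of 0.46 (Spearman 0.48), and 0.39 (0.43) without DMSO 3. The lines share no library. Of all genes tested, 40.2% passed in LP-1 and 40.7% in U266, and how many passed alike in both was not counted. Nor was the correlation over all genes computed, so neither the count nor r is shown to be particular to the members.

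MRPL16, the L16 protein beside the tRNA sites (chromosome 11, 59806135 to 59810872, minus strand), was at 43.1, 37.6 and 60.3 FPKM with DMSO and 28.3, 27.5 and 26.1 FPKM with DHA in LP-1. In U266 it was at 21.9, 22.6 and 22.6 FPKM against 17.4, 18.4 and 16.5 FPKM. No DHA value reached a control in either line, and the log2 changes were -0.73 ± 0.17 (adjusted p = 0.0162) and -0.34 ± 0.06 (adjusted p = 0.000832). The LP-1 change was -0.55 without DMSO 3, and the LP-1 call was lost without any one DHA library (up to 0.0640). The U266 call was lost in the fit of all 12 libraries (adjusted p = 0.0661).

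MRPS25, a small-subunit protein found only in mitochondrial ribosomes (chromosome 3, 15042460 to 15065335, minus strand), was at 5.28, 4.96 and 4.66 FPKM against 3.17, 3.19 and 3.33 FPKM in LP-1. In U266 it was at 8.60, 8.33 and 8.62 FPKM against 5.33, 6.88 and 5.96 FPKM. DMSO 3 was the lowest LP-1 control here, and the groups were apart in both lines. Its log2 changes of -0.50 ± 0.08 and -0.44 ± 0.09 (adjusted p = 0.00429 and 0.00286) passed under every alternative run, and the LP-1 value was -0.53 without DMSO 3.

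MRPS34 (chromosome 16, 1771890 to 1773155, minus strand), the most abundant member in LP-1, was at 161, 152 and 208 FPKM against 114, 115 and 123 FPKM. In U266 it was at 63.2, 90.1 and 78.6 FPKM against 60.5, 59.1 and 59.3 FPKM. The U266 controls spread widely while the DHA libraries did not. Log2 changes were -0.55 ± 0.13 (adjusted p = 0.0189; up to 0.0781 without 1 DHA library) and -0.35 ± 0.10 (adjusted p = 0.0182). The LP-1 change was -0.42 without DMSO 3. The U266 call was lost in 5 of 14 alternatives, which were no filter, quantile scaling, no variance trend, the fit of all 12 libraries and leaving out DMSO 3 of U266 (up to 0.0962).

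MRPL28 fell from 28.4 ± 5.27 to 20.1 ± 0.202 FPKM in LP-1 and from 25.8 ± 2.18 to 19.8 ± 2.62 FPKM in U266 (adjusted p = 0.0331 and 0.00827). It shares exon bases with TMEM8A, and its LP-1 log2 change was -0.46, or -0.33 without DMSO 3. Its LP-1 call was lost without DMSO 1 or any DHA library (up to 0.103 over all alternatives). MRPS5, the S5 protein near the decoding site, fell from 2.97 ± 0.710 to 1.65 ± 0.119 FPKM in LP-1 and from 12.7 ± 0.159 to 10.8 ± 0.334 FPKM in U266 (adjusted p = 0.0244 and 0.0135). Its LP-1 log2 change was -0.57, and -0.72 without DMSO 3. In LP-1 it is one of the lowest members, shares exon bases with ZNF514, and did not pass without DMSO 1 or any DHA library (up to 0.0840 over all alternatives). In U266 MRPS5 did not pass in the fit of all 12 libraries (adjusted p = 0.174). MRPL34 in U266 was at 55.3, 62.0 and 61.6 FPKM against 56.9, 48.4 and 47.3 FPKM. DHA 1 lay above a control there, and the call (log2 change -0.23, adjusted p = 0.0320) was lost in 10 of 14 alternatives, 4 of them without DMSO 2, DMSO 3, DHA 2 or DHA 3.

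MRPS22, a small-subunit protein without bacterial counterpart (chromosome 3, 139005806 to 139357223, plus strand), was the only shared rise. It was at 3.37, 3.55 and 4.21 FPKM with DMSO and 4.69, 5.10 and 4.89 FPKM with DHA in LP-1, and at 8.92, 9.38 and 7.83 FPKM against 12.6, 12.5 and 11.5 FPKM in U266. Every DHA library exceeded every control of its line. Log2 changes were 0.33 ± 0.09 in LP-1 (adjusted p = 0.0348; 0.40 without DMSO 3) and 0.44 ± 0.08 (adjusted p = 0.00122). The LP-1 call was lost in 8 of 13 alternatives, among them without DMSO 1, DMSO 2 or any DHA library (up to 0.128). Its annotated exons overlap COPB2 on the other strand.

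**Figure D3:**
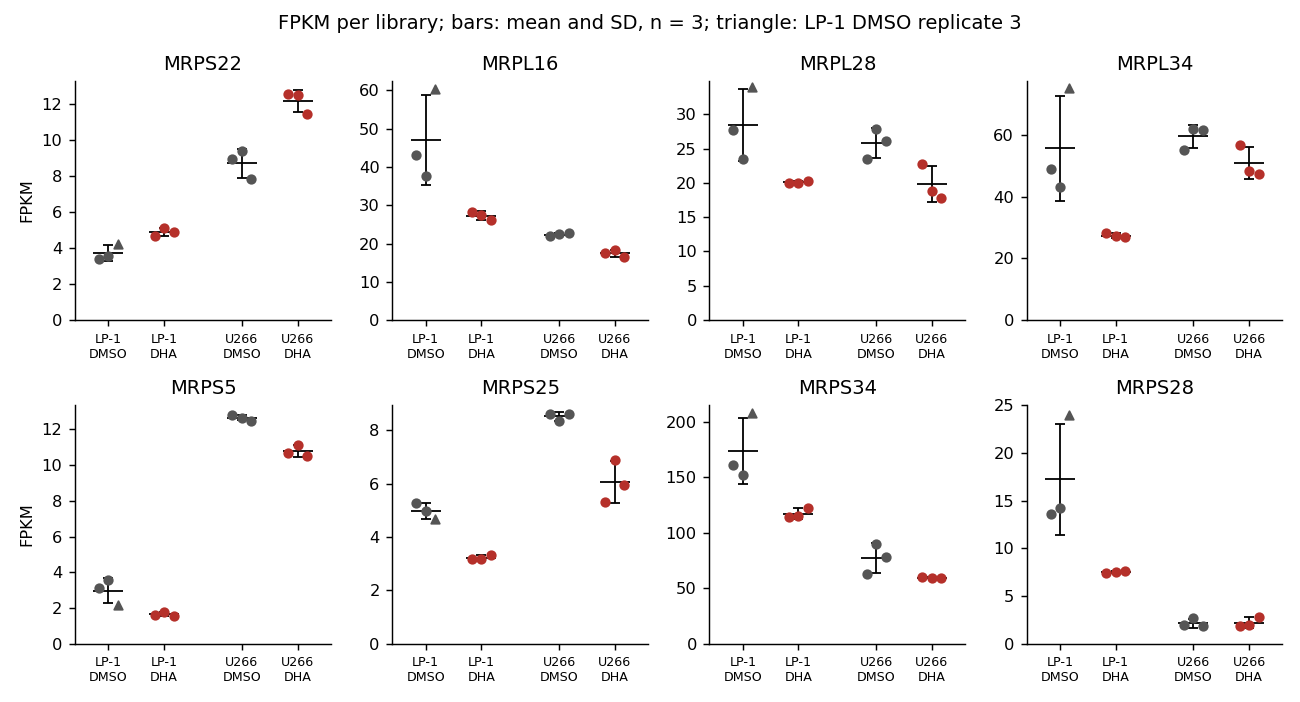
FPKM in each library for the 7 members that passed in both lines and for MRPS28; points are libraries, bars are mean and SD (n = 3), and the triangle is LP-1 DMSO replicate 3. MRPS22 is higher with DHA in both lines, the next 6 are lower, and MRPS28 is lower in LP-1 while its U266 groups overlap between 1.82 and 2.85 FPKM.

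The change with DHA differed between the lines for 10 of 75 members by the interaction contrast over all 12 libraries. It was higher in U266 for 6 and lower for 4, 8.0% and 5.33%, against 16.0% and 18.6% of the 8696 genes tested. For MRPS28 the difference, U266 minus LP-1, was 1.09 ± 0.26 (adjusted p = 0.00814). Its U266 level was low, 1.94, 2.65 and 1.82 FPKM with DMSO and 1.87, 1.95 and 2.85 FPKM with DHA. MRPL3, the L3 protein of the large-subunit core, had the difference with the lowest adjusted p. It was at 57.4, 51.1 and 59.3 FPKM against 65.2, 65.0 and 65.4 FPKM in LP-1, and at 56.1, 57.3 and 51.5 FPKM against 43.7, 44.2 and 41.3 FPKM in U266. All DHA libraries were above the controls in LP-1 and below them in U266, and the difference was -0.57 ± 0.10 (adjusted p = 0.00142). Without DMSO 3 of LP-1, MRPL3 passed in both lines in opposite directions, and 27 members differed between the lines, while the share of all genes that differed went from 34.6% to 47.8%. The count was 6 without LP-1 DHA 2 or U266 DMSO 1, with 26.2% and 27.5% of all genes.

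**Figure D4:**
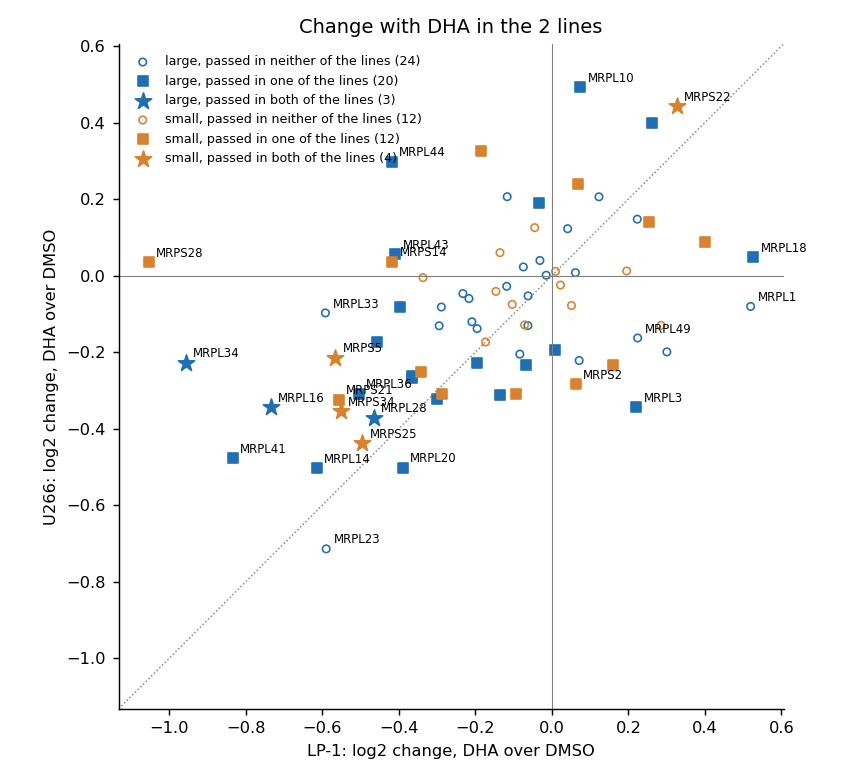
Log2 change with DHA in LP-1 (horizontal) and U266 (vertical) for the 75 members tested in both; stars passed in both lines, squares in one, open circles in neither, and the dotted line marks equal change. Stars lie in the lower left, apart from MRPS22 in the upper right, and MRPS28, MRPL44 and MRPL3 lie far from the line.

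In both subunits falls were more frequent than rises. Of all tested genes 20.0% rose and 20.2% fell in LP-1, 28.0% and 28.6% without DMSO 3, and 21.1% and 19.6% in U266. The falling shares of both subunits were thus below or near that of all genes in LP-1 and above it in U266. In LP-1, 1 of 48 MRPL genes rose and 6 fell (2.08% and 12.5%, median log2 change -0.13). Of 29 MRPS genes, 3 rose and 6 fell (10.3% and 20.7%, median -0.10). Without DMSO 3 it was 9 and 11 of 48 (18.8% and 22.9%, median 0.00) against 5 and 8 of 29 (17.2% and 27.6%, median 0.04). In U266, 4 of 47 MRPL genes rose and 15 fell (8.51% and 31.9%, median -0.13). Of 28 MRPS genes, 3 rose and 9 fell there (10.7% and 32.1%, median -0.06). With MRPS18A and MRPS30 moved to the large subunit and MRPS36 left out, the LP-1 medians were -0.12 and -0.14 and the U266 medians -0.12 and -0.08, or 0.01 and 0.02 in LP-1 without DMSO 3, so the order of the subunits in LP-1 with all libraries depended on where MRPS18A and MRPS30 were put. Members of bacterial type included 7 falls of 46 in LP-1 (15.2%) and 16 of 45 in U266 (35.6%). Mitochondria-specific members included 5 of 30 (16.7%) and 7 of 29 (24.1%). Without DMSO 3 the LP-1 falls were 14 of 46 (30.4%) and 5 of 30 (16.7%), and whether the classes differ was not tested.

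Cytosolic ribosomal proteins and the respiratory chain, whose mitochondrially encoded subunits the mitochondrial ribosome makes, are the related machineries. Over all tested genes, 20.0% rose and 20.2% fell in LP-1 (28.0% and 28.6% without DMSO 3), and 21.1% and 19.6% in U266. Counts of these and the following lists are to be read beside those shares. In LP-1 none of 77 cytosolic ribosomal protein genes rose and 24 fell (median log2 change -0.59), or 59 fell without DMSO 3 (median -0.33), while in U266 2 rose and 4 of 78 fell (median 0.00). Of the nuclear-encoded respiratory chain genes, 19 of 74 fell in LP-1 (31 without DMSO 3) and 29 of 60 in U266, with medians of -0.50 (-0.25 without DMSO 3) and -0.20. The members' LP-1 medians of -0.12, and 0.01 without DMSO 3, were nearer 0 than those of either list; the lists were not tested against the members.

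Mitoribosomal proteins with other symbols, 5 in number, gave 0 rises and 1 fall in LP-1 (1 and 1 without DMSO 3) and 1 rise and 2 falls in U266. CHCHD1, a small-subunit protein, fell in LP-1 from 24.3 ± 9.67 to 12.6 ± 1.17 FPKM (log2 change -0.83, adjusted p = 0.0405), with DMSO 3 at 35.2 FPKM and a log2 change of -0.54 without it. In U266 GADD45GIP1 fell from 27.6 ± 5.73 to 19.5 ± 1.52 FPKM and AURKAIP1 from 66.2 ± 3.99 to 51.8 ± 4.48 FPKM. Of 28 assembly and rRNA modification factors, 5 (17.9%) rose and none fell in LP-1 (8 and 2 without DMSO 3, 28.6% and 7.14%). The share rising was near that of all genes, 20.0%, or 28.0% without DMSO 3. GTPBP10, a GTPase of large-subunit maturation, rose from 4.71 ± 0.336 to 9.43 ± 0.259 FPKM and NSUN4, an rRNA methyltransferase, from 2.11 ± 0.268 to 4.11 ± 0.190 FPKM. In U266 4 rose and 4 fell, and the falls of C1QBP (43.3 ± 0.460 to 30.5 ± 0.940 FPKM) and TRUB2 (14.2 ± 0.273 to 9.92 ± 0.200 FPKM) were the largest.

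Of 12 translation factors tested in LP-1, 4 rose and 2 fell, 33.3% and 16.7% (5 and 2 without DMSO 3). The elongation factor GFM1 rose from 9.18 ± 0.0794 to 12.7 ± 0.269 FPKM and the initiation factor MTIF3 fell from 14.9 ± 2.04 to 10.7 ± 0.833 FPKM. Of 10 in U266, 1 rose and 1 fell: the elongation factor TUFM fell from 114 ± 9.01 to 88.8 ± 6.02 FPKM and the initiation factor MTIF2 rose from 42.7 ± 0.837 to 48.6 ± 1.85 FPKM. Among 11 genes of mitochondrial transcription and mRNA stability, 5 (45.5%) rose and none fell in LP-1 (6 and 0 without DMSO 3). In U266 2 rose and 3 fell, 18.2% and 27.3%. The helicase SUPV3L1 rose in both lines, from 15.6 ± 0.580 to 22.2 ± 0.735 FPKM and from 12.3 ± 0.0749 to 15.9 ± 0.833 FPKM. TFAM, which packages mitochondrial DNA, rose in LP-1 from 14.4 ± 0.858 to 19.2 ± 0.259 FPKM. SLIRP, which stabilises mitochondrial mRNAs, fell in U266 from 11.8 ± 0.409 to 9.68 ± 1.43 FPKM.

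Mitochondrially encoded RNAs, 15 in number, were tested in LP-1 and none of them in U266. In LP-1 2 rose and 4 fell, 13.3% and 26.7% (2 and 12 without DMSO 3, 13.3% and 80.0%). The small rRNA of the mitochondrial ribosome, MT-RNR1, was at 912, 951 and 974 FPKM with DMSO and 2805, 2708 and 2778 FPKM with DHA, a log2 change of 1.55 ± 0.12 (adjusted p = 0.000371; 1.57 without DMSO 3). The groups were far apart, and the largest rise among MRPS genes in LP-1 with all libraries was the 0.40 of MRPS35. The kit used was one for mRNA, and how far it captured an rRNA was not measured. The values of MT-RNR1 and of MRPS35, an mRNA, are therefore not like for like. MT-ND6, the complex I subunit encoded on the light strand, fell from 2824 ± 450 to 863 ± 41.4 FPKM (log2 change -1.70 ± 0.16, adjusted p = 0.000746; -1.82 without DMSO 3).

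Promoters of mitochondrial ribosomal protein genes are known for sites of ETS factors, YY1 and NRF1. RefSeq windows (GRCh38.p14) from 250 bases before to 50 bases after a start were found for 70 members, in 86 windows, some of which overlap. The ETS motif CCGGAAG, on either strand, was in 38.4% of the members' windows, in 17.8% of 14071 windows of genes tested in either line and in 10.3% of all 35116 windows. The YY1 motif AAGATGGCG was in 15.1% of members' windows against 3.63% and 1.75%. The NRF1 motif GCATGCGC was in 6.98% against 5.22% and 3.05%, the E-box CACGTG in 11.6% against 9.49% and 7.26%, and the amino acid response element TGATGNAA in 1.16% against 1.99% and 3.62%. The ETS motif ends with the AAG that opens the YY1 motif, so one stretch can hold both. MRPL and MRPS windows were alike in ETS matches (36.5% and 41.2%) and YY1 matches (15.4% and 14.7%). By direction of change, the ETS motif was in 31.3% of windows of members that fell in U266, 25.0% of those that rose and 44.2% of those that did not pass, out of 32, 8 and 43 windows. In LP-1 the order was another, with a match in 5 of 15 windows of falling members, 4 of 8 of rising members and 37.1% of 62 of other tested members. Some members have more than 1 window. Counted by gene, a match was found in U266 for 9 of 23 falling, 1 of 6 rising and 18 of 38 other tested members. The LP-1 counts by gene were 5 of 11, 3 of 4 and 21 of 54.

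Of the 7 members that passed in both lines, 4 had an ETS match in a window, and the 30 bases around each are shown to set the falling and the rising members side by side. The MRPS22 stretch is at chr3:139343896-139343925 (plus strand), that of MRPL16 at chr11:59810766-59810795, of MRPL28 at chr16:370513-370542 and of MRPS34 at chr16:1773187-1773216 (all minus strand). A YY1 match of MRPS30 at chr5:44808950-44808979 (plus strand) is added. Capitals mark every match to the motif in the stretch, read 5′ to 3′ on the gene's strand; CTTCCGG is the ETS motif on the other strand.
MRPS22: tctataagggcCCGGAAGaCTTCCGGccct
MRPL16: agtgaacacaaCTTCCGGccccactgagcg
MRPL28: cggcagatcggCTTCCGGttccggtgggct
MRPS34: cctcttcctcgCTTCCGGccgcgaccgaac
MRPS30: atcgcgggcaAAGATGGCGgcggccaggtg
The rising MRPS22 and the falling MRPL16, MRPL28 and MRPS34 thus hold the same ETS motif, MRPS22 on both strands and the other 3 on the strand opposite the gene. It was not in the windows of MRPL34, MRPS5 and MRPS25. A match is a description of sequence and binding was not measured.

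**Figure D5:**
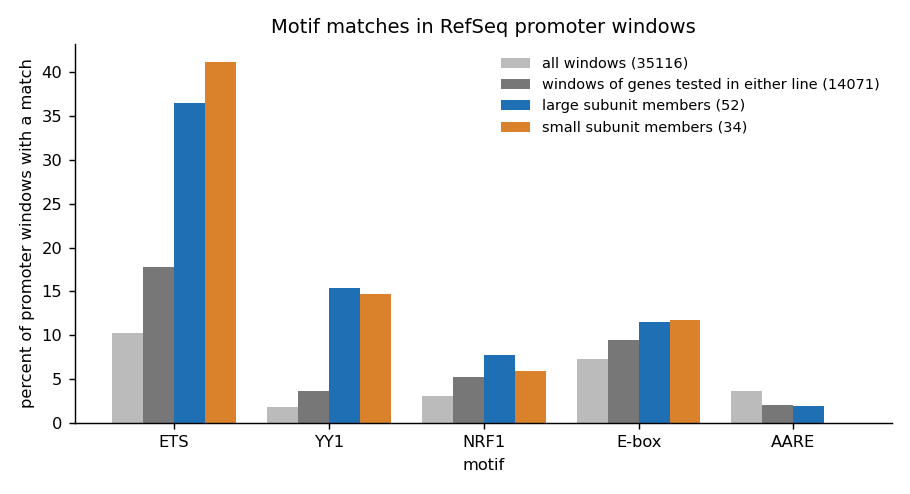
Percent of RefSeq promoter windows holding each motif, for all windows, windows of tested genes, and windows of MRPL and MRPS genes (number of windows in brackets). ETS and YY1 bars of both subunits stand above those of all and of tested genes, while NRF1, E-box and AARE (amino acid response element) bars lie closer together.

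Genes for regulators of these promoters gave 1 rise and no fall of 9 in LP-1 (3 rises without DMSO 3) and 1 rise and 2 falls of 9 in U266. MYC was at 221, 221 and 180 FPKM with DMSO and 293, 287 and 271 FPKM with DHA in LP-1. In U266 it was at 10.8, 9.69 and 9.58 FPKM against 1.90, 2.64 and 3.27 FPKM, a log2 change of -1.63 ± 0.13 (adjusted p = 7.57e-06). PPRC1, a coactivator of mitochondrial genes, fell in U266 from 13.8 ± 0.375 to 10.2 ± 1.01 FPKM (adjusted p = 0.00151). Their part in the members' changes was not tested.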

How the data were processed

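The deposited tables, 1 for each line, give the authors' FPKM, in which reads are divided by gene length and library size. The builds listed in the submitters' processing notes are of mouse (GRCm38, mm10), although both tables hold human genes. No source used here names the aligner, counter or annotation. Per the labels' protocols, the SMARTER kit for mRNA was used. LP-1 genes were matched by Ensembl identifier and U266 genes by symbol, with GENCODE v29 for exon lengths. The members, the gene lists and the rule for named genes were chosen with earlier results of these data known.

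A gene was tested on log2(FPKM + 1) if 3 or more libraries of its line reached 1 FPKM; on this scale a fold understates the change of low genes. The fit, 1 per line, was made in limma 3.58.1 (R 4.3.3; lmFit, eBayes with trend). Tests were two-sided with Benjamini-Hochberg adjustment across every gene tested, and passed at an adjusted p under 0.05. The difference between lines was the interaction contrast over 12 libraries. The fit was tested on simulated data. Read depth came from the step size of low FPKM values, which made 86.3 to 95.0% of values up to 100 reads lie within 0.1 of a whole read.

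Named members were, per line, the 5 largest rises and falls, the 5 highest and 3 lowest by level, and the 5 largest line differences each way. MRPL12, MRPL41, MRPL58, MRPS12, MRPS18A, MRPS30 and MRPS36 were named whatever their result, and from each other list the 2 largest changes per line. Other members that passed in both lines were named after their values were seen. Alternatives were: pseudocount 0.1; no filter; a filter on a 5 FPKM mean; TMM-style and quantile scaling; no variance trend; a replicate block; 1 fit of all libraries; and leaving out each library. The subunits by structure and the alternatives run without LP-1 DMSO 3 were added after the data were seen.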

Additional observations from a re-analysis of the deposited data

Results flagged for a closer look

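The change with DHA differed between the lines for 10 members, by the interaction contrast of limma (U266 minus LP-1, log2 scale, adjusted over all genes tested). It was higher in U266 for MRPS28 (1.09), MRPL34 (0.73), MRPL44 (0.72), MRPL43 (0.47), MRPS14 (0.45) and MRPL10 (0.42). It was lower in U266 for MRPL1 (-0.60), MRPL3 (-0.57), MRPL49 (-0.39) and MRPS2 (-0.35). The differences of MRPS28, MRPL3 and MRPL49 passed in every alternative run, with adjusted p of at most 0.0240, 0.00542 and 0.0413. Those of MRPL10, MRPL43 and MRPL44 were lost only under TMM-style scaling (0.202, 0.0861 and 0.0775), which moved the median difference of all genes by -0.13. That of MRPL34 was lost there and without LP-1 DHA 2 or 3 or U266 DMSO 1 or DHA 1 (up to 0.0986). Those of MRPL1, MRPS2 and MRPS14 were lost in 12, 9 and 11 of 19 alternatives, most of them with 1 library left out (up to 0.0922, 0.0905 and 0.242).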

How the results depend on the processing

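Over the 84 changes and line differences of named members, 1002 alternative values kept direction and side of the threshold, 142 lost and 39 gained a call, and 33 changed sign, all 33 of values that had not passed. Rising members in LP-1 (4) became 2 with no filter, 7 with quantile scaling and 7 in 1 fit of all 12 libraries, and ranged from 0 to 14 with 1 library left out. Falling members in LP-1 (12) became 19 in that fit and ranged from 4 to 20. The share of all LP-1 genes called was 40.2% as deposited, 43.6% with quantile scaling and 56.3% in that fit. With no filter it was 14.4% of 31244 genes, and with 1 library left out it ran from 23.3% to 56.5%. Without DMSO 3, falls (19) became 12 with no filter, while the share of all genes called went from 56.5% to 21.4%. In U266, rises (7) became 2 with TMM-style scaling and 4 in the fit of all libraries, and falls (24) became 6 there. Of all U266 genes, 31.5% and 28.6% were called in these fits, against 40.7% as deposited. TMM-style scaling put the U266 median log2 change at -0.21 for all members, -0.23 for the large and -0.16 for the small subunit. It moved the median of all U266 genes by -0.10. Line differences (10) became 6 with that scaling. Those of MRPL10, MRPL34, MRPL43, MRPL44 and MRPS14 were lost there, so the 6 include a member not among the 10. With 1 library left out, the count of line differences ranged from 6 to 27. The cause of these shifts was not tested.

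Signs turned for values that had not passed. With quantile scaling these were MRPL9 (0.074), MRPL24 (0.062) and MRPS18B (0.056) in LP-1 and MRPS28 (-0.074) in U266. With TMM-style scaling they were, in U266, MRPL18 (-0.0655), MRPL43 (-0.049), MRPL47 (-0.11), MRPS14 (-0.072), MRPS28 (-0.047) and MRPS35 (-0.0225). With 1 library left out, the LP-1 log2 change ranged from -0.12 to 0.072 for MRPL9, -0.57 to 0.091 for MRPL12, -0.26 to 0.20 for MRPL24, -0.11 to 0.33 for MRPL47, -0.29 to 0.0071 for MRPS9, -0.53 to 0.037 for MRPS12, -0.18 to 0.094 for MRPS18B and -0.0225 to 0.37 for MRPS36. In U266 it ranged from -0.13 to 0.0077 for MRPL1, -0.38 to 0.0398 for MRPL12, -0.039 to 0.079 for MRPS14 and -0.10 to 0.15 for MRPS28. The MRPS35 log2 change in U266 ranged from -0.0063 to 0.18, and the MRPL47 log2 change in U266 from -0.0235 to 0.053.

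Deviations of libraries with the same replicate number were weakly correlated (r of 0.07, 0.02 and 0.18 in LP-1 and -0.04, -0.08 and -0.02 in U266). With unlike numbers r ran from -0.17 to 0.16 in LP-1 and from -0.02 to 0.07 in U266. With 3 libraries per group these values neither show nor exclude pairing by number. With the replicate block, 3 members rose and 12 fell in LP-1, 6 rose and 23 fell in U266, and 10 differed between the lines. MRPS24 and MRPL38 in U266, at 5 to 23 and 28 to 60 reads per library, were left out by the filter on 1 FPKM.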
